A study of Mus musculus with 3 samples.

Results

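Inhibitory checkpoint receptors were described in T cells that had infiltrated melanoma tumors, as a set of 9 genes: Pdcd1 (PD-1), Havcr2 (TIM-3), Lag3, Tigit, Ctla4, Cd160, Cd244a (2B4), Cd200r1 and Btla. The set was defined by gene symbol and its rule used no measured value, but it was chosen with earlier results of these data known. All 9 were found among the 33696 genes of the count tables, and all 9 passed the limit of a mean of 5 CPM over the 3 libraries. CPM are unique molecular identifiers (UMIs, 1 per captured transcript) per 1000000 UMIs in the library.

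The cells were pmel CD8+ T cells, which carry a transgenic T cell receptor for the melanoma antigen gp100 and the Thy1.1 marker. They were cultured with gp100 peptide and 10 nM cytokine, then transferred on day 5 into C57BL/6 mice that bore B16F10 melanoma in the flank and had received 6 Gy of radiation. On day 18 after tumor injection, the transferred cells (live, Thy1.1+CD8+) were sorted out of dissociated tumors, and 1 single-cell RNA library was made per group. In the sIL-2 group, both culture and treatment used sIL-2, a super IL-2 with raised affinity for the β chain of the IL-2 receptor. In the IL-2/21-Trikine group both used the Trikine, a fusion of sIL-2 with an IL-21 mutant that binds the IL-21 receptor α chain without signaling alone. The sIL-2 + IL-21 group had both cytokines in culture but sIL-2 alone in the mice, so it differed from the sIL-2 group in the culture only. Each group received 4 doses of 2.5 μg. All cells came from 1 transgenic T cell line of mice, transferred into irradiated hosts, and the number of mice behind a library was not given in the sources used here.

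These receptors restrain T cells after antigen recognition. PD-1, TIGIT, BTLA and 2B4 carry tyrosine motifs that recruit phosphatases or SAP family adaptors, CTLA-4 competes with CD28 for CD80 and CD86, LAG-3 binds MHC class II and other ligands, and CD200R1 signals through Dok proteins. Cells that hold several of them at once are a known feature of T cells under chronic stimulation in tumors, while BTLA is also carried by less differentiated T cells.

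After the limits on cells, 7760, 13299 and 9798 cells remained in the libraries of sIL-2, the Trikine and sIL-2 + IL-21, the order kept below where 3 values are given, with 130200802, 166772854 and 168041089 UMIs. The median per cell was 12882, 10254 and 14056 UMIs, and 6.20%, 19.3% and 9.26% of cells held fewer than 5000. All 7 T cell identity genes were detected in each library, and Cd3e had a UMI in 96.9%, 90.1% and 96.3% of cells. Myeloid markers were present in all libraries (10 of 10 genes, summed to 26.7, 27.2 and 12.98 CPM). The 6 melanoma markers summed to 2.24 to 8.87 CPM, the 4 B cell markers to 1.72 to 2.38 CPM with 1 gene at 0 in each library, and the 4 NK cell markers to 167, 95.2 and 111 CPM. The NK cell sum was mostly Klre1 (150, 85.9 and 100 CPM), found in 49.5%, 35.7% and 52.9% of cells, while Ncr1 had 0.18, 0.07 and 0.20 CPM. It is thus not read as an amount of NK cells. The 4 hemoglobin genes summed to 68.7 CPM with sIL-2 and to 0.120 and 0.476 CPM in the others. The part of these other transcripts in the results was not tested, except that no receptor ratio past 0.5 changed direction without the 99 barcodes that held myeloid or melanoma genes. Pairs of libraries shared 18 to 41 cell barcodes, and none was in all 3. With 1 library per group no test between groups was possible, and every 95% interval given here covers counting error only, not variation between mice or libraries. Intervals of CPM and of their ratios also leave out variation between cells. In the full counts the variance of a receptor over cells was 1.15 to 11.1 times its mean, so these intervals are too narrow for that variation.

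Promoters of 7 of the 9 genes matched a RefSeq table on build GRCm38.p6, and 4 are shown because they belong to the genes at the ends of the order for the Trikine: Pdcd1, Havcr2 and Cd244a, whose levels were lowest with it, and Btla, whose level was highest with it. Each line gives the 250 bases before the transcription start, 5′ to 3′ on the strand of the gene. Capitals mark matches to 3 short motifs searched on both strands, TTCNNNGAA (the palindrome bound by STAT factors), TGANTCA (AP-1) and GGAAA (the NFAT core, TTTCC on the other strand).
Pdcd1 (chr1:94052554-94052803, minus strand): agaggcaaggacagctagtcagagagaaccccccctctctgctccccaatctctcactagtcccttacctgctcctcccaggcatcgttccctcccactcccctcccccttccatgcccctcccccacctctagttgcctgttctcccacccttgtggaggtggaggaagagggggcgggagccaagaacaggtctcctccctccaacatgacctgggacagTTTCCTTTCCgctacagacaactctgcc
Havcr2 (chr11:46454681-46454930, plus strand): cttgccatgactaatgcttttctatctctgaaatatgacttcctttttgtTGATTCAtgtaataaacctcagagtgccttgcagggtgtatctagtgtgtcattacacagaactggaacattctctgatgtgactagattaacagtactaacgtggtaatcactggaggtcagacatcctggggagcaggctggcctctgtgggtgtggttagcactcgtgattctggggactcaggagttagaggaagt
Cd244a (chr1:171558943-171559192, plus strand): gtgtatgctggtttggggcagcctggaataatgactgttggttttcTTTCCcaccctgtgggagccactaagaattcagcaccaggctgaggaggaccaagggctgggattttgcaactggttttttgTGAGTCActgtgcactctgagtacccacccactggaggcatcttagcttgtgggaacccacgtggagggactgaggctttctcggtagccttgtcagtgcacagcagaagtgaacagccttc
Btla (chr16:45224087-45224336, plus strand): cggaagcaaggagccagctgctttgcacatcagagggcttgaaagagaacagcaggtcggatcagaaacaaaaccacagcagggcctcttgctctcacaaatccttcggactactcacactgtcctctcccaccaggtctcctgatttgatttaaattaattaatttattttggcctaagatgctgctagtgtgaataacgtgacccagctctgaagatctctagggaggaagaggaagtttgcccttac
The Pdcd1 window held 2 matches to the NFAT core next to each other, at -28 and -23 from the start site. The windows of Havcr2 and Cd244a each held 1 AP-1 match, at -200 and -122 from it, and that of Cd244a also 1 NFAT core match. No motif of the 3 was found in the Btla window, and none of the 4 windows held the STAT letters. Among the matched genes not shown, Cd160 held a STAT match at -234 from start site 2, and Tigit, Ctla4 and Cd160 held NFAT core matches. For Tigit the bases checked after the start site were in no annotated transcript of the gene on either strand, so its window is uncertain. Over 32841 windows of the same length, 7.02% held the STAT letters, 6.75% the AP-1 letters and 55.6% the NFAT core, so the last of these is common. A match describes the letters only. Lag3 and Cd200r1 were not in the table.

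The receptors fell into 3 patterns of level. Pdcd1, Havcr2 and Cd244a were lowest in the IL-2/21-Trikine library. Lag3, Tigit, Ctla4, Cd160 and Cd200r1 were highest with sIL-2, intermediate with the Trikine and lowest with sIL-2 + IL-21. Btla alone was highest with the Trikine. The sIL-2 library was highest for 7 of the 9 genes and lowest for 0, the IL-2/21-Trikine library lowest for 3, and the sIL-2 + IL-21 library lowest for 6. The share of all genes with the same ranks was not computed, so these counts are not read as a trait of the receptors. The median log2 ratio of all genes to sIL-2 was itself -0.08 for each of the other libraries.

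PD-1, the receptor for PD-L1 and PD-L2, is encoded by Pdcd1, which had 173 CPM with sIL-2, 103 CPM with the Trikine and 172 CPM with sIL-2 + IL-21. The first and the last did not differ beyond their intervals (171 to 175 and 170 to 174 CPM), and both lay well above the Trikine library. The log2 ratio of Trikine to sIL-2 was -0.75 (-0.78 to -0.72) and that of Trikine to sIL-2 + IL-21 was -0.74 (-0.77 to -0.72). Havcr2, which encodes TIM-3, a receptor of galectin-9, had 148, 58.9 and 146 CPM in the same order of libraries. This was the widest spread of the set, 2.52-fold from highest to lowest, with log2 ratios of -1.33 (-1.37 to -1.30) and -1.31 (-1.34 to -1.27) for the Trikine against sIL-2 and sIL-2 + IL-21. For these 2 genes the ratio of sIL-2 + IL-21 to sIL-2 was near 0 (-0.01 and -0.03) and took either sign over the alternatives, up to 0.14 and 0.08. Cd244a, the receptor for CD48, had 24.4, 13.2 and 29.005 CPM, and no neighboring values in that order overlapped. It was the only one of the 9 with its highest level in the sIL-2 + IL-21 library, at a log2 ratio to sIL-2 of 0.25 (0.18 to 0.31).

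Among the genes lowest with sIL-2 + IL-21, Lag3 had 93.2, 65.3 and 55.2 CPM with sIL-2, the Trikine and sIL-2 + IL-21. Its ratio of Trikine to sIL-2, -0.51 (-0.55 to -0.48), lay close to the 0.5 used as a limit here and ranged from -0.54 to -0.41 over 9 alternatives. Tigit, which binds CD155 (Pvr), had 19.3, 12.4 and 10.8 CPM. Cd200r1, the receptor for CD200, had 15.9, 9.83 and 7.73 CPM, so the sIL-2 + IL-21 library held 0.485 (0.452 to 0.520) of the sIL-2 level. This gene belongs to a family of related copies, and its level is uncertain where reads map to more than 1 of them. Cd160, a receptor that shares the ligand HVEM with BTLA, had 221, 191 and 137 CPM. Ctla4 moved least, with 553, 487 and 433 CPM and a spread of 1.28-fold. Intervals of neighboring libraries did not overlap for any of these 5 genes, but the step from Trikine to sIL-2 + IL-21 was small for Lag3, Tigit and Ctla4, at log2 ratios of 0.24, 0.20 and 0.17. The share of all genes without such overlap was not computed, and the intervals cover counting error only. The lack of overlap is thus not read as a result about these receptors.

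Btla had 13.6 CPM with sIL-2, 18.8 CPM with the Trikine and 8.72 CPM with sIL-2 + IL-21. The Trikine library thus held 2.16 times (2.03 to 2.30) the level of the sIL-2 + IL-21 library and 1.39 times (1.31 to 1.47) that of the sIL-2 library. In log2 the latter was 0.47, which ranged from 0.33 to 0.57 over the alternatives.

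**Figure D1:**
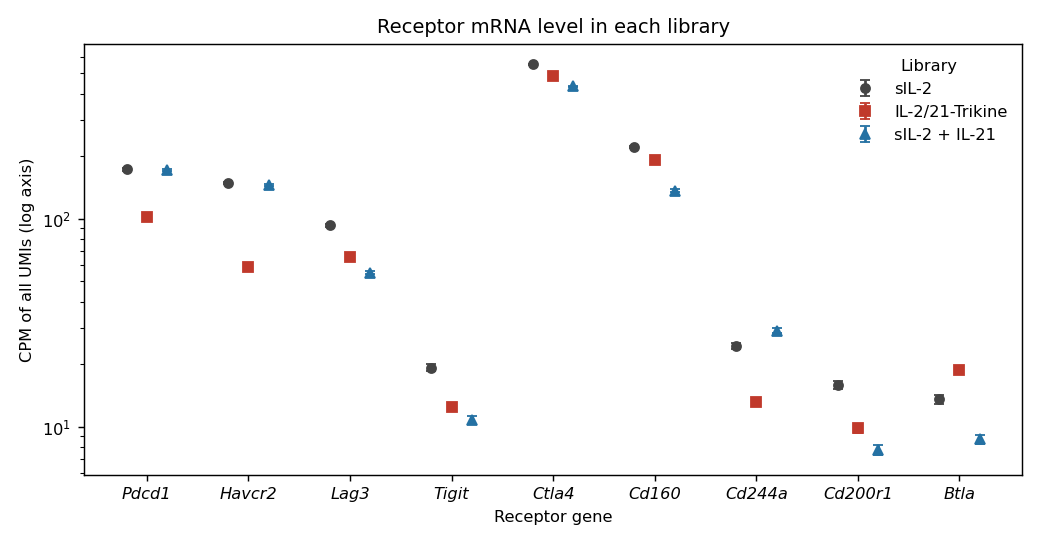
Level of each receptor gene (x axis) as CPM of all UMIs (y axis, log scale) in the sIL-2 (circles), IL-2/21-Trikine (squares) and sIL-2 + IL-21 (triangles) libraries, with exact 95% Poisson intervals for counting error, which are mostly smaller than the symbols. Havcr2 drops to 58.9 CPM with the Trikine from 148 and 146 CPM in the others, whereas Btla is highest there, at 18.8 CPM.

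At a log2 ratio of 0.5, 6 of 9 receptors were lower and 0 higher with the Trikine than with sIL-2, where 5.81% of the 8824 genes at a mean of 5 CPM or more were lower and 2.88% higher (8.69% either way). Those 6 were Pdcd1, Havcr2, Lag3, Tigit, Cd244a and Cd200r1. By TMM or median of ratios scaling 5 were lower, without Lag3, and 1 higher, Btla. Against sIL-2 + IL-21, the Trikine library was lower for 3 (Pdcd1, Havcr2 and Cd244a; 3.58% of all genes) and higher for 1 (Btla; 3.51% of all genes, 7.09% either way). Between the 2 groups treated with sIL-2 in the mice, sIL-2 + IL-21 was lower for 5 (Lag3, Tigit, Cd160, Cd200r1 and Btla; 10.1% of all genes) and higher for 0 (5.79% of all genes, 15.9% either way). The median log2 ratio of the 9 was -0.63, 0.20 and -0.64 in these 3 comparisons, beside -0.08, 0.00 and -0.08 for all genes. The split of all genes depended on scaling: by a trimmed mean of M values (TMM), 4.95% were higher and 3.51% lower for the Trikine over sIL-2, and 8.65% and 6.43% for sIL-2 + IL-21 over sIL-2, and the median of all genes was 0.02 in both. The comparisons share libraries, so they are not independent of one another.

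**Figure D2:**
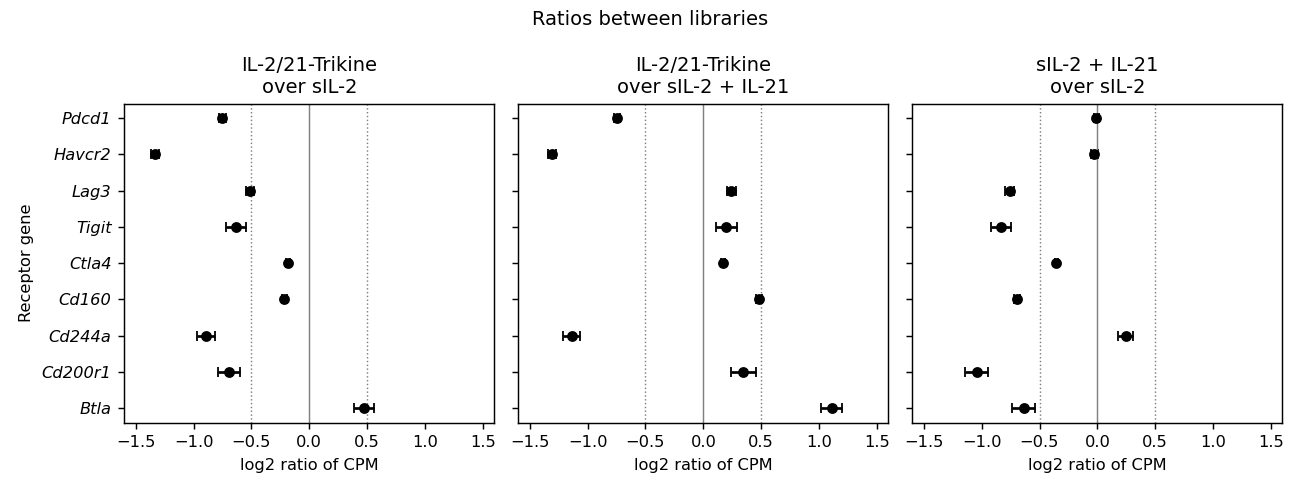
Log2 ratio of CPM (x axis) for each receptor gene (y axis) in the 3 comparisons of libraries, with exact 95% intervals for counting error, a solid line at 0 and dotted lines at 0.5 in either direction. Pdcd1, Havcr2 and Cd244a lie left of -0.5 in both comparisons with the Trikine on top, and near 0 or above in the comparison of sIL-2 + IL-21 with sIL-2.

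Depth differs between libraries, so shares of cells with a UMI were compared after each cell was thinned to 5000 UMIs, which kept 7279, 10729 and 8891 cells. Havcr2 had a UMI in 34.6%, 17.1% and 36.8% of cells with sIL-2, the Trikine and sIL-2 + IL-21, against 51.6%, 26.6% and 54.8% without thinning. For Pdcd1 the shares were 37.8%, 28.0% and 43.2% (53.8%, 39.2% and 60.5% without thinning). The share of Pdcd1 cells was thus higher with sIL-2 + IL-21 than with sIL-2 while the CPM were alike, and no order of these libraries is read from it. Lag3 was found in 34.5%, 26.03% and 24.4% of cells (60.99%, 43.9% and 50.2% without thinning) and Tigit in 10.2%, 6.52% and 5.98% (25.1%, 13.2% and 15.9%). Ctla4 had a UMI in 77.7% to 78.3% of cells in every library (89.1%, 81.8% and 88.96% without thinning) and a mean over cells of 3.07, 2.66 and 2.38 UMIs, so at this depth libraries differed in UMIs per cell and hardly in the share. At 2000 UMIs, where fewer cells reach a UMI, its shares were 58.8% (57.6% to 59.9%), 55.97% (55.1% to 56.9%) and 53.1% (52.1% to 54.1%), which do not overlap and follow the CPM. Cd160 was found in 48.9%, 50.5% and 41.4% of cells (66.7%, 61.5% and 63.9% without thinning), and since its CPM had sIL-2 above the Trikine, no order of those is read from the shares. Cd244a was found in 7.53%, 4.83% and 10.7% (19.3%, 10.99% and 27.4%), Cd200r1 in 7.46%, 4.87% and 4.52% (17.4%, 9.41% and 10.4%), and Btla in 6.90%, 8.60% and 4.74% (14.96%, 16.4% and 11.4%).

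Barcodes with myeloid or melanoma genes and no UMI of a T cell gene gave a rough measure of background, though only 21 were found, with a median of 1815 UMIs against 11997 in the other cells. The lack of a T cell UMI was a condition of their choice, so the background of T cell transcripts in them can be too low. None of the 21 had a UMI of Pdcd1, Lag3, Tigit or Btla, which allows a share of up to 16.1% (exact limit). Havcr2, Ctla4, Cd160 and Cd200r1 were each found in 2 (9.52%) and Cd244a in 3 (14.3%, 3.05% to 36.3%), and myeloid cells are themselves known to express Havcr2, Cd244a and Cd200r1. Among 1301 T cells of 1000 to 3000 UMIs, a range chosen after the data were seen, Ctla4 was found in 51.0%, above the interval of the 21 barcodes (1.17% to 30.4%). Because those barcodes were chosen for the lack of T cell UMIs, Ctla4 is not set above background by this. Pdcd1 was found in 16.1% (14.2% to 18.3%), against an exact upper limit of 16.1% for 0 of 21, and was not set above it. Havcr2 (15.4%), Cd160 (15.1%), Lag3 (12.1%), Btla (5.38%), Cd244a (3.69%), Cd200r1 (3.46%) and Tigit (3.31%) lay within what 21 barcodes allow, so their shares could not be set above background by this measure. For Cd244a and Cd200r1 the share of T cells was below that of the 21 barcodes, so no expression is read from these shares at this depth, and the few barcodes of cells that can express both genes are a poor measure of their background. Barcodes with myeloid genes held at most 1.71% of the UMIs of any receptor in a library.

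Cells of the Trikine library held fewer of the 9 receptors at equal depth. The mean number with a UMI was 2.66 ± 1.27 (SD over cells) with sIL-2, 2.24 ± 1.12 with the Trikine and 2.496 ± 1.18 with sIL-2 + IL-21. At least 3 were found in 53.3% (52.2% to 54.5%), 38.4% (37.5% to 39.3%) and 48.0% (47.0% to 49.1%) of cells, and 4 or more in 24.7%, 12.99% and 19.3%. Cells with none made up 2.71%, 3.598% and 2.73%. Without thinning the shares with 3 or more were 76.9%, 59.7% and 76.2%, so sIL-2 + IL-21 lay below sIL-2 at equal depth and hardly in the full counts. The size of the gap followed the depth chosen: the share with 3 or more in the Trikine library was 0.720 of that with sIL-2 at 5000 UMIs, 0.552 at 2000 and 0.866 at 10000.

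**Figure D3:**
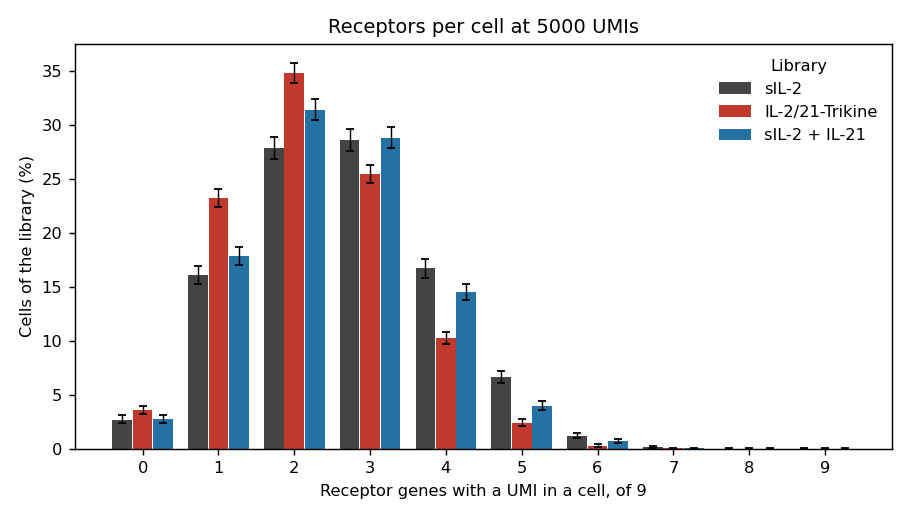
Share of cells (y axis, %) by the number of the 9 receptor genes with a UMI in the cell (x axis) after thinning to 5000 UMIs, in each library, with exact 95% binomial intervals. The Trikine library leads at 1 and 2 receptors, with 23.2% and 34.8% of cells, and falls behind both others from 3 receptors on.

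The share of cells with 3 or more was close to what independent receptors would give, while the distribution of the number was wider. From the product of the single shares, 54.0%, 38.5% and 48.2% of cells would hold 3 or more, and the SD over cells would be 1.18, 1.09 and 1.15. The measured SD was higher in each library, with more cells at 5 receptors (6.65%, 2.40% and 3.99%) than the product gave (5.19%, 2.03% and 3.68%). Fewer cells held 2 or more (81.2%, 73.2% and 79.4%) than the product gave (84.0%, 74.7% and 80.7%). More cells held 4 or more than the 23.1%, 12.2% and 18.5% of the product. Of 512 possible combinations, 281, 253 and 250 were seen. Ctla4 alone was the most frequent one, in 10.2%, 14.9% and 10.5% of cells, followed by Ctla4 with Cd160 in 7.53%, 12.9% and 7.39%. Pdcd1, Havcr2 and Ctla4 together, with no other receptor, made up 2.98% of cells with sIL-2, 1.62% with the Trikine and 5.77% with sIL-2 + IL-21.

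Coexpression was uneven across the 36 pairs, although its median was close to what independence gives. The number of cells with both receptors over the number expected from the 2 shares had a median of 1.02, 1.01 and 1.03 in the 3 libraries. For 6 pairs the interval lay above 1 in every library and for 4 it lay below 1 in every library. Pdcd1 and Cd244a were found together in 1.52, 1.81 and 1.38 times the expected number of cells with sIL-2, the Trikine and sIL-2 + IL-21, and Havcr2 and Cd244a 1.56, 1.69 and 1.48 times. Pdcd1 and Havcr2 were found together in 1.28, 1.34 and 1.23 times the expected number, in 16.7%, 6.39% and 19.6% of cells. Each pair among the 3 genes lowest with the Trikine was thus found together more often than the product of its shares gave. This held in each library, the Trikine library included. Cells with all 3 genes were not compared with an expected number. The other pairs above 1 throughout were Pdcd1 with Ctla4 (1.04 to 1.05), Lag3 with Cd160 (1.06 to 1.12) and Lag3 with Cd200r1 (1.15 to 1.32).

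Btla stood on the other side. It was found with Cd244a in 18, 17 and 16 cells against 37.8, 44.6 and 44.8 expected, which is 0.48, 0.38 and 0.36 of the expected number. With Pdcd1 the ratio was 0.73, 0.70 and 0.81, and with Havcr2 it was 0.77, 0.84 and 0.65. Ctla4 and Cd160, both frequent, were found together slightly less often than expected (0.945, 0.953 and 0.961). Cells of a library share their source, so these ratios describe the libraries and were not tested.

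**Figure D4:**
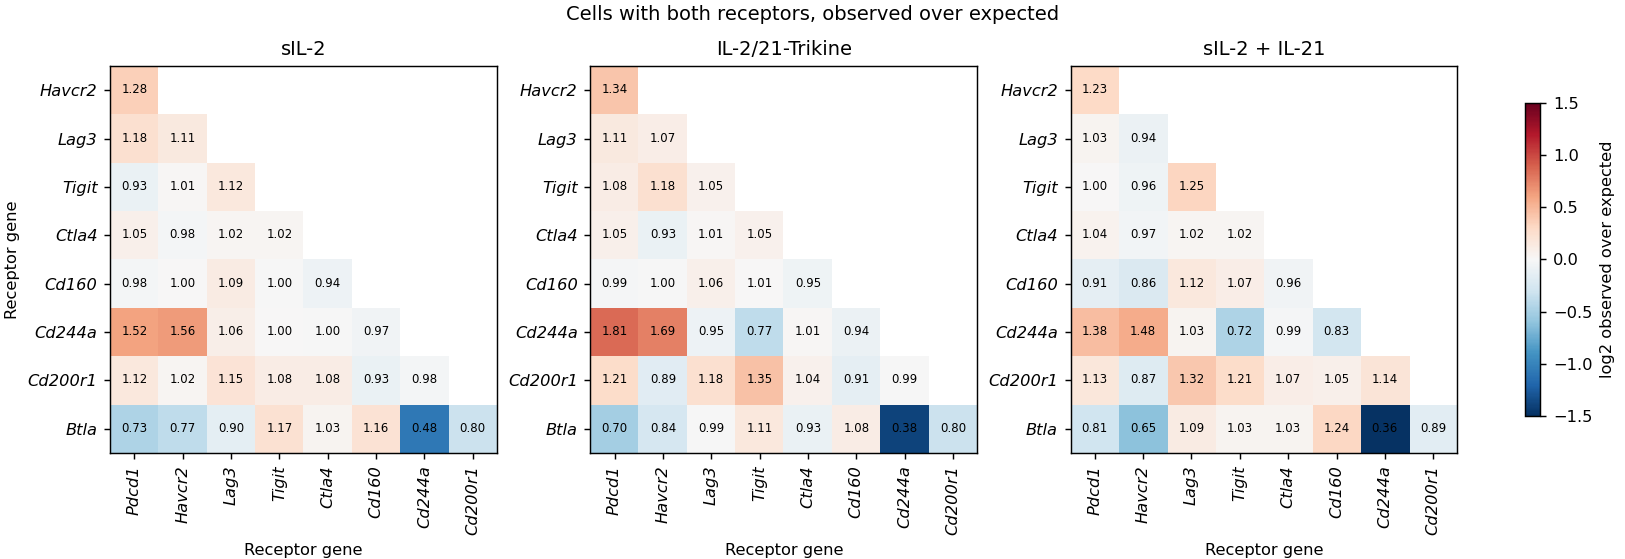
Number of cells with both receptor genes over the number expected from the product of their shares at 5000 UMIs, for the 36 pairs in each library, with the ratio printed in each square and the color giving its log2 value. Red squares gather where Pdcd1, Havcr2 and Cd244a meet (1.23 to 1.81), and blue squares in the Btla row below those 3 genes (0.36 to 0.84).

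Granzymes C to G are encoded by a cluster of granzyme genes that strongly activated mouse CD8+ T cells express. Cells with at least 3 UMIs of Gzmc, Gzmd, Gzme, Gzmf and Gzmg at 5000 UMIs made up 32.7% of cells with sIL-2, 32.8% with the Trikine and 66.3% with sIL-2 + IL-21. This is a range of a score and not a cell type, and 583, 988 and 944 cells lay at the limit or 1 UMI below it. Within each library Cd244a was much higher in these cells than in the rest, by log2 ratios of 2.29, 2.28 and 2.36. Pdcd1 (1.19, 1.26 and 0.95) and Havcr2 (0.89, 1.06 and 0.98) were higher as well. Btla was lower (-1.53, -1.09 and -1.65), as was Cd160 (-0.83, -0.54 and -1.07), while Ctla4 (0.02, -0.07 and -0.11) and Lag3 (0.10, 0.11 and -0.14) hardly differed.

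The sIL-2 + IL-21 library held the most granzyme cells, and some receptor levels changed order against sIL-2 once cells were compared within the split. Cd244a was higher with sIL-2 + IL-21 over all cells, at 29.005 against 24.4 CPM. Among granzyme cells, however, it had 35.4 CPM with sIL-2 + IL-21 and 42.4 CPM with sIL-2, and in the rest 6.89 and 8.65 CPM, so its log2 ratio was -0.26 (-0.33 to -0.19) and -0.33 (-0.55 to -0.11). Pdcd1 and Havcr2, alike over all cells, were lower with sIL-2 + IL-21 among granzyme cells (-0.35 and -0.26) and in the rest (-0.11 and -0.34). In 5 bins of granzyme UMIs, chosen after the data were seen, the 3 genes were lower with sIL-2 + IL-21 than with sIL-2 in 5 of 5 bins each, with log2 ratios from -0.58 to -0.14. The interval for Cd244a reached above 0 in the bin with no granzyme UMI (-0.63 to 0.05). Btla went from -0.64 over all cells to -0.21 (-0.38 to -0.03) among granzyme cells and -0.09 (-0.23 to 0.04) in the rest. In the 5 bins it lay between -0.26 and 0.08, with 0 inside each interval. Cd200r1 stayed lower in every bin, at -1.41 to -0.99. For Tigit the log2 ratio of the Trikine to the sIL-2 + IL-21 library differed in sign between the sides of the split. Outside the granzyme cells it was -0.19 (-0.34 to -0.04). Cd160 lay at -0.05 (-0.08 to -0.01) there. Both steps were small and their intervals leave out variation between cells, so no order is read from them. Among granzyme cells both genes were higher with the Trikine (0.23 and 0.48). By bins, however, Tigit was still lower with the Trikine at 3 to 9 UMIs, at -0.37 (-0.62 to -0.13). It was higher at 10 to 29 UMIs (0.25) and at 30 or more (0.52). Lag3, Ctla4 and Cd200r1 were higher with the Trikine on both sides, but the interval for Cd200r1 outside the granzyme cells held 0 (-0.09 to 0.33).

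The Trikine library was lower than both others for Pdcd1 and Havcr2 in 5 of 5 bins. Cd244a was lower with it in 5 of 5 bins too, by -0.89 to -0.48 against sIL-2 and -0.60 to -0.15 against sIL-2 + IL-21. The latter ratio was -1.14 over all cells. Its interval held 0 at 1 to 2 UMIs (-0.51 to 0.09) and at 3 to 9 UMIs (-0.37 to 0.07). Havcr2 in cells without a granzyme UMI had 101 CPM with sIL-2, 37.7 CPM with the Trikine and 79.6 CPM with sIL-2 + IL-21. At 30 or more granzyme UMIs it had 258, 139 and 205 CPM, and the log2 ratio of Trikine to sIL-2 narrowed from -1.42 to -0.89. For Pdcd1 at 30 or more UMIs the levels were 297, 192 and 212 CPM, and the ratio of Trikine to sIL-2 + IL-21 was -0.15 (-0.20 to -0.09), against -0.65 in cells without a granzyme UMI. Btla was higher with the Trikine than in either other library in 5 of 5 bins, by 0.28 to 0.91 over sIL-2 and 0.34 to 1.17 over sIL-2 + IL-21. The number of receptors followed the bins too: cells with 3 or more went from 44.4% to 75.0% with sIL-2, from 31.1% to 58.5% with the Trikine and from 35.5% to 57.1% with sIL-2 + IL-21 between 0 and at least 30 granzyme UMIs. At 1 to 2 UMIs the shares were 48.1%, 34.4% and 38.9%, at 3 to 9 UMIs 62.2%, 45.1% and 47.1%, and at 10 to 29 UMIs 69.2%, 52.5% and 52.96%. The Trikine library lay below sIL-2 + IL-21 in the 4 lower bins and above it in the highest, and both lay below sIL-2 in all 5. No interval was computed for the shares in these bins.

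**Figure D5:**
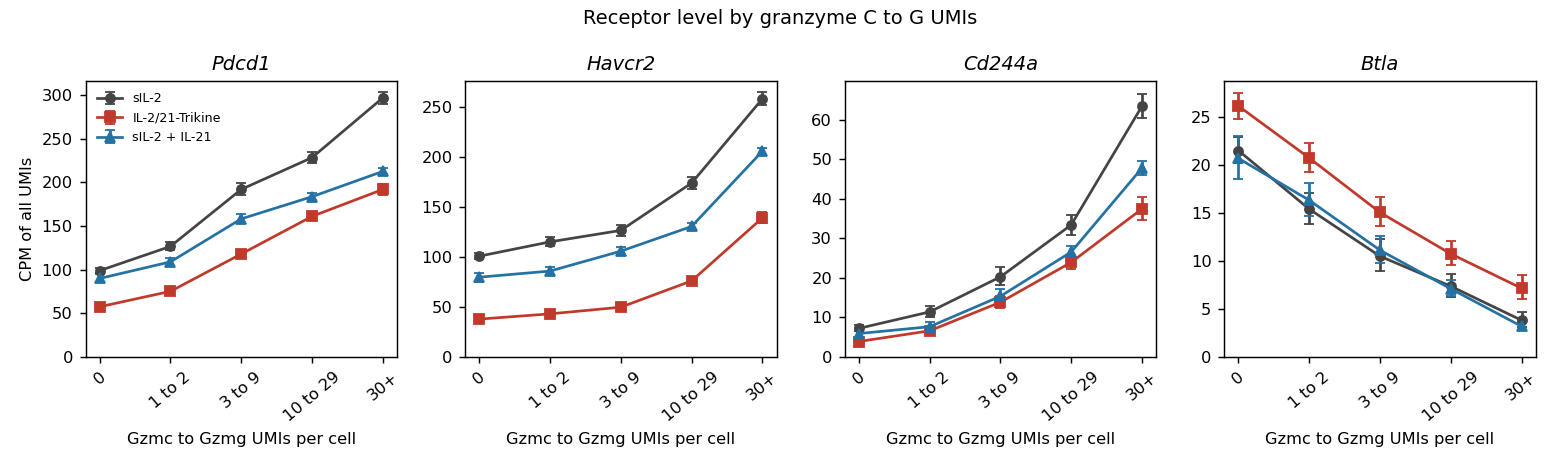
CPM of Pdcd1, Havcr2, Cd244a and Btla (y axes, each from 0) by the UMIs of granzymes C to G in the cell at 5000 UMIs (x axis, 5 bins) in each library, with exact 95% Poisson intervals for counting error. Levels of the first 3 genes climb with granzyme UMIs and are highest with sIL-2 in each bin, whereas Btla declines and is highest with the Trikine in each bin.

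Tcf7 encodes TCF1, a transcription factor of stem-like and memory T cells. Cells with a Tcf7 UMI at 5000 UMIs were 24.2%, 23.7% and 11.4% of the libraries. They held Havcr2 in 17.5%, 9.05% and 13.5% of cells, against 40.01%, 19.6% and 39.8% of cells without a Tcf7 UMI. Pdcd1 was found in 23.1%, 18.9% and 23.8% of them, against 42.5%, 30.8% and 45.7%. Btla was found more often in Tcf7 cells, in 10.2%, 10.5% and 9.87% against 5.84%, 8.02% and 4.07%, so its share in these cells was nearly the same in the 3 libraries while that in the others was not. Ctla4 was found in 82.7%, 82.7% and 83.5% of Tcf7 cells. A mean of 2.32, 2.07 and 2.19 receptors was counted in Tcf7 cells and of 2.77, 2.30 and 2.53 in the rest.

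Other splits set further receptors apart. In cells with at least 3 UMIs of Il2, Il3, Ifng, Tnf, Ccl3, Ccl4, Xcl1 and Csf2, Cd160 was higher by log2 ratios of 1.502, 1.10 and 1.06 and Ctla4 lower (-0.58, -0.49 and -0.35). Cells with at least 3 UMIs of 10 mitosis genes such as Mki67 and Top2a had less Cd160 (-0.65, -0.58 and -0.94), Tigit (-0.55, -0.51 and -0.69) and Btla (-0.85, -0.44 and -0.84). Interferon-response cells, with at least 3 UMIs of 12 genes such as Isg15 and Ifit3, had more Cd200r1 (0.47, 0.48 and 0.89) and Btla (0.66, 0.31 and 0.74). The 5 splits divide the same cells, so their 10 sides overlap and are not independent. Over the 10 sides of these 5 splits, Havcr2 was lower with the Trikine than with sIL-2 on 10 of 10, at -1.43 to -1.25, and Pdcd1 on 10 of 10, at -0.82 to -0.55. Btla was higher with the Trikine on 10 of 10, but by as little as 0.03. In 5 bins of UMIs per cell, Havcr2 again stayed lower with the Trikine (-1.84 to -1.03 against sIL-2), while Btla turned to -0.47 at 2000 to 4999 UMIs and Cd244a to 0.12 at 5000 to 9999 UMIs. Cd160 took either sign across these bins, from 0.62 at 500 to 1999 UMIs to -0.33 at 10000 to 19999. The part of depth in these values was not tested.

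Among 5527 genes at a mean of 20 CPM or more, those whose counts followed a receptor most closely across cells in all 3 libraries differed from receptor to receptor. Cd160 had the strongest neighbors: the lowest Pearson r of the 3 libraries was 0.40 for the chemokine gene Xcl1, 0.36 for Crtam and 0.34 for Ccl4. Havcr2 went with the cytotoxic genes Gzmb (0.25), Prf1 (0.22) and Gzma (0.19), and Cd244a with Gzmc (0.17) and Fcer1g (0.16). Pdcd1 was led by Ifitm1 (0.20) and S100a4 (0.17), Ctla4 by Ifngr1 (0.25) and Emb (0.22), and Lag3 by Klrd1 (0.11) and Ptms (0.10). No gene reached 0.1 for Tigit, Cd200r1 or Btla. These correlations are across the 7279, 10729 and 8891 cells at 5000 UMIs, which share a library each and are sparse, and are given as a description.

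Genes of the same pathways were read from lists of ligands, partner receptors, signaling adaptors and regulators. Counts past 0.5 in these lists use CPM and were not repeated under the other scalings. Of 15 ligand genes 10 passed the limit of 5 CPM in these libraries, and 1 was higher and 2 lower with the Trikine than with sIL-2, beside 2.88% and 5.81% of all genes. Lgals3, a galectin that binds LAG-3, had 708, 452 and 906 CPM and thus followed the order of Cd244a. Cd200, the ligand of CD200R1, had 4.51, 7.86 and 5.88 CPM and was highest with the Trikine. Cd80, a CTLA-4 ligand, had 62.7, 42.9 and 47.4 CPM, and Cd86, the other one, had 15.4, 15.3 and 7.14 CPM. The summed myeloid markers, at 26.7, 27.2 and 12.98 CPM, were likewise lowest with sIL-2 + IL-21. The part of myeloid cells in the ligand levels was not tested. Cd274, which encodes PD-L1, had 85.2, 72.8 and 62.3 CPM, with no ratio past 0.5. Tnfrsf14, which encodes HVEM, the ligand of BTLA and CD160, had only 1.11 to 1.93 CPM.

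Partner and related receptors were mostly lower with sIL-2 + IL-21, as were 5 of the 9 inhibitory receptors. Of 15 that passed, 9 were lower and 0 higher than with sIL-2, beside 10.1% and 5.79% of all genes, with a median log2 ratio of -0.60 beside -0.08 for all genes. Cd28, the costimulatory receptor that competes with CTLA-4, had 427, 335 and 280.0 CPM, and Tnfsf14, a ligand of HVEM, 25.4, 15.2 and 10.1 CPM. Cd226, the activating receptor that shares CD155 with TIGIT, had 147, 163 and 97.1 CPM. Slamf6, of the same SLAM family as 2B4 and a marker of stem-like T cells, had 8.58, 13.1 and 6.08 CPM, the order of Btla. Of 21 adaptor and phosphatase genes that passed, 4 were lower with the Trikine than with sIL-2 and 0 higher, beside 5.81% and 2.88% of all genes. The 4 were Pik3r1, Inpp5d, Dgka and Fyn, at log2 ratios of -0.64, -0.57, -0.56 and -0.55. Inpp5d, Dgka and Fyn lay nearer to the limit than the step by which TMM moved the median of all genes (-0.08 to 0.02). The count of 4 thus depends on scaling. None of the adaptors and phosphatases given next was among the 4. Ptpn6, which encodes the phosphatase SHP-1, had 98.97, 89.3 and 94.2 CPM and Ptpn11 (SHP-2) had 30.3, 28.9 and 28.6 CPM. Sh2d1a, which encodes the 2B4 adaptor SAP, had 66.1, 59.3 and 68.4 CPM. Dok2, a CD200R1 adaptor, had 89.3, 79.0 and 112 CPM, unlike Cd200r1 itself.

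Of 21 regulator genes that passed, 7 were lower and 1 higher with the Trikine than with sIL-2, beside 5.81% and 2.88% of all genes. With sIL-2 + IL-21, 13 were lower and 0 higher than with sIL-2, beside 10.1% and 5.79% of all genes. Prdm1, which encodes BLIMP-1, had 18.2, 7.95 and 16.8 CPM, which is the order of Pdcd1 and Havcr2. Maf had 21.4, 8.503 and 12.52 CPM. Tox, a factor of T cells under chronic stimulation, had 33.1, 46.7 and 13.1 CPM and so did not follow Pdcd1, and Id3, a factor of memory precursors, had 4.16, 8.43 and 2.75 CPM. Both were highest with the Trikine and lowest with sIL-2 + IL-21, as was Btla. Eomes fell most between the libraries, with 11.8, 4.95 and 2.64 CPM. Nr4a1, an early gene of T cell receptor signaling, had 346, 177 and 155 CPM, and Tcf7 itself 60.3, 59.9 and 21.7 CPM.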

How the data were processed

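The authors made droplet-based 3′ single-cell libraries and deposited unnormalized UMI counts for each gene in each cell, produced by Cell Ranger 9.0.0 with intronic reads. The labels name mm10 and the methods a GRCm39 reference. Cells with 500 to 120000 UMIs and at most 20% mitochondrial UMIs were kept (30857 of 31026). UMIs were summed per library and scaled to CPM of all UMIs, and log2 ratios got exact conditional binomial intervals. Cells were thinned to 5000 UMIs with a fixed seed for shares, numbers, pairs and splits. Shallower cells were left out of these. No clusters were made and no doublet caller was run, and an alternative without the 10% of cells with most UMIs stands in for one. Scripts were tested on simulated data. The 9 members and all lists were chosen with earlier results of these data known. Genes named beside the members were drawn from the 2 highest and 2 lowest ratios of each list per comparison and up to 5 correlated genes per member. Not all of these are named. Further genes of the lists were named after their values were seen for their link to a member. In a GRCm38 annotation Ctla4 overlaps a ribosomal pseudogene on its strand, and Cd160 and Cd244a overlap genes on the other strand. Protein sequences were not used here. Python 3.11.15, numpy 2.4.6, scipy 1.17.1 and edgeR 4.0.16 (TMM factors only) were used. Alternatives changed scaling, weight of cells, depth, limits on cells, other cell types, cycling cells, low values and fold.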

Additional observations from a re-analysis of the deposited data

How the results depend on the processing

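No paired analysis was possible because each group has 1 library, and for the same reason no library could be left out and no result has a test. Under 9 alternatives each, no ratio past 0.5 changed direction: of 243 values, 135 moved by less than the counting error and 108 by more. For the Trikine over sIL-2, 1 receptor (Btla) was higher under median of ratios scaling (4.46% of all genes), TMM (4.95%) and a log2 ratio of 0.25 (11.4%). Under both scalings Lag3 left the 6 lower ones (-0.41 by TMM, -0.43 by median of ratios), as it did with each cell weighted equally (-0.49). In these 3 settings 5 remained, beside 3.51%, 3.89% and 5.29% of all genes. There were 3 lower at a mean of at least 50 CPM (5.05% of all genes) and 1 at a log2 ratio of 1 (0.827%). The limit of 50 CPM left out Tigit, Cd244a, Cd200r1 and Btla, with means of 11.2 to 22.2 CPM. Over sIL-2 + IL-21, 0 were higher at 50 CPM (2.996%), where Btla was not counted, and 3 at 0.25 (12.4%). For sIL-2 + IL-21 over sIL-2, 3 were lower with each cell weighted equally (7.91%), at 2000 UMIs (9.44%) and without cycling cells (7.11%). In that comparison 2 were lower at 50 CPM (10.9%) and 1 at a log2 ratio of 1 (1.56%). TMM moved the median of all genes from -0.08 to 0.02 for the Trikine over sIL-2. The share of cells with 3 or more receptors followed depth by its construction. For the Trikine over sIL-2 the ratio was 0.552 at 2000 UMIs, 0.866 at 10000 and 0.775 unthinned, for the Trikine over sIL-2 + IL-21 0.752 at 2000, 0.918 at 10000 and 0.755 without cycling cells, and for sIL-2 + IL-21 over sIL-2 0.735, 0.943 and 0.991 unthinned. Without thinning, 36 pairs (Trikine) and 34 (sIL-2 + IL-21) lay above 1 where 20 and 22 did at 5000 UMIs. The cause of the other moves was not tested. Depth limits Tigit, Cd200r1, Cd244a and Btla most, each found in at most 10.7% of cells at 5000 UMIs.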

Other observations

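Cells with none of the 9 receptors at 5000 UMIs numbered 197 with sIL-2, 386 with the Trikine and 243 with sIL-2 + IL-21. With sIL-2, 43.7% of them had at least 3 UMIs of the interferon genes, against 23.8% of cells with 3 or more receptors, and 34.5% against 18.9% had a Tcf7 UMI. In the sIL-2 + IL-21 library the interferon shares were 8.23% and 8.40%. Their median depth before thinning was 9298 UMIs in the former library and 15980 in the latter, beside 15487 and 16179 UMIs in cells with 3 or more.

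Cells on the low side of all 5 splits at once numbered 720, 845 and 425 in the same order of libraries. They had Havcr2 at 66.8, 20.5 and 34.7 CPM and Cd244a at 10.96, 3.003 and 6.41 CPM. The Cd244a levels rest on only 88, 24 and 24 UMIs. In these cells the sIL-2 + IL-21 library lay below the sIL-2 library for Havcr2 (log2 ratio -0.94) and for Pdcd1 (-0.84, at 118 and 65.7 CPM), which over all cells were alike. Pdcd1 had 61.3 CPM with the Trikine in these cells. Its log2 ratio of Trikine to sIL-2 + IL-21 was -0.10 (-0.32 to 0.13) there, so those 2 libraries did not differ beyond counting error.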
